A study of Mus musculus with 15 samples.

Results

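The members are 7 genes of the connective tissue of the heart: the small leucine-rich proteoglycans Dcn (decorin), Bgn (biglycan), Lum (lumican), Fmod (fibromodulin) and Ogn (osteoglycin), and the fibroblast markers Pdgfra and Tcf21. They are 7 of 18194 genes named by the platform annotation, and every probe set whose only symbol is one of theirs was used, 19 of the 45101 probe sets in the table. No probe set names a member together with another gene. Only Pdgfra encodes a receptor. Tcf21 encodes a transcription factor, so both are called fibroblast markers here. The members were selected on differences in log2 signal between the 2 genotypes seen in an earlier look at these arrays, led by those of Dcn and Pdgfra. Their differences between genotypes are therefore a description, and no p-value of a single member is given.

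Small leucine-rich proteoglycans are secreted proteins built of leucine-rich repeats that bind collagen fibrils and set their spacing and thickness. Decorin and biglycan form class I and carry chondroitin or dermatan sulfate chains, lumican and fibromodulin form class II and carry keratan sulfate, and osteoglycin belongs to class III. In the heart they are made mainly by fibroblasts, the cells that Pdgfra and Tcf21 mark.

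Hearts of male mice aged 10 weeks were compared: 7 mice heterozygous for Lmna H222P and 8 control mice, with 1 Affymetrix 1-colour array of whole-heart total RNA per mouse. H222P is an amino acid substitution in lamins A and C, the filament proteins of the nuclear lamina. The labels give no strain, litter or batch, and the control genotype is not spelled out. In whole-organ RNA, more cells of a type and more RNA per cell cannot be told apart.

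Signals are linear intensities scaled to the same trimmed mean on every array, and array medians lay between 56.7 and 82.9 units in heterozygous hearts and between 68.5 and 94.2 units in control hearts. Precision is limited by how many arrays there are. Ventricular cardiomyocyte markers were bright throughout: the sum of 13 of them was 175726 to 432677 units in heterozygous hearts and 229587 to 665131 units in control hearts. All 19 member probe sets passed the filter on low signal. Of these, 9 exceeded the array median on all 15 arrays and are called bright below: 1 each of Dcn, Lum, Pdgfra and Tcf21, 3 of Bgn and 2 of Ogn. No Fmod probe set did. In the brightest probe sets, heterozygous array 2 was the lowest heterozygous array in Lum, Ogn, Bgn and Pdgfra, and array 1 the highest in Bgn. Differences and SDs that rest on these arrays are therefore given with and without them. By the gap rule given under the flagged results, array 2 stood apart in Ogn and Pdgfra only.

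Promoters of 5 of the 7 members were in the RefSeq table of build GRCm38.p6: Bgn, Fmod, Ogn, Pdgfra and Tcf21. Dcn and Lum were not among them. Tcf21 belongs to the basic helix-loop-helix factors, whose motif is the E-box CANNTG, which reads the same pattern on both strands. In the 250 bases before the transcript start, Ogn held 3 matches, Bgn, Fmod and Pdgfra 1 each and Tcf21 0. Of all 32851 promoters in the table, 66.2% held at least 1. The single matches in Pdgfra and Fmod were CATCTG, and that of Bgn was CAGCTG. Windows of 3 members are printed for comparison, with the E-box matches in capitals. They run from the 250th base before the start to the last one, 5′ to 3′. The members are Pdgfra, whose bright probe set was higher on most heterozygous arrays, and Bgn, whose 3 probe sets varied together across the heterozygous arrays. The last is Ogn, whose brighter probe set had nearly equal group medians. The 3 windows lie on the plus strand at chr5:75152001-75152250, chrX:73483351-73483600 and chr13:49607765-49608014, with a GC content of 54.4%, 64.4% and 42%.
Pdgfra: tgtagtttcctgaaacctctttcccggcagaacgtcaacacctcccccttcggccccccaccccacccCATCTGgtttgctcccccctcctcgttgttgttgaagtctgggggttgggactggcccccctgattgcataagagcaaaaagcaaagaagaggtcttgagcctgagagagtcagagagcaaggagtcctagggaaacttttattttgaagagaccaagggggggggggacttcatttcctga
Bgn: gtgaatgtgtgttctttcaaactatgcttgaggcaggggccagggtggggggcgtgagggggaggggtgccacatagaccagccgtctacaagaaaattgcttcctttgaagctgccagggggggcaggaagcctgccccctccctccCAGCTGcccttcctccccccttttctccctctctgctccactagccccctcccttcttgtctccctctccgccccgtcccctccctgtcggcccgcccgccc
Ogn: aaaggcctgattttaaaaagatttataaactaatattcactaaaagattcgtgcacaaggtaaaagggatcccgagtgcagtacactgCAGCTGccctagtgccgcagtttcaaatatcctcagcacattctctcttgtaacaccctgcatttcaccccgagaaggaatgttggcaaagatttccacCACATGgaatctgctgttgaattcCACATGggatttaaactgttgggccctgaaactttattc

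Of the members, decorin differed most clearly between the genotypes. Its bright probe set (1449368_at) had signals of 17666.6, 13915.8, 9241.8, 10939, 12214.4, 9164.6 and 12443.4 units on heterozygous arrays 1 to 7, against 4702.2, 7397.5, 6604.2, 8131.2, 7584.9, 4553.9, 7183.6 and 6768.5 units on control arrays 1 to 8. Every heterozygous heart lay above every control heart, and the lowest heterozygous values, on arrays 3 and 6, were close to the highest control, array 4. Log2 signals averaged 13.54 ± 0.33 (SD, n = 7) in heterozygous and 12.66 ± 0.32 (SD, n = 8) in control hearts, a difference of 0.88 with an SE of 0.18, or 1.84-fold. Control arrays 1 and 6 were the 2 lowest. The other probe set of Dcn (1441506_at) was weak, with 15.2 to 86.5 units in heterozygous and 33.2 to 88 units in control hearts. It exceeded the array median on 3 of 15 arrays, and its log2 difference was -0.47 with an SE of 0.34. The correlation of the 2 probe sets across arrays was low and did not pass the test (Pearson r = 0.14, permutation p = 0.628, adjusted p = 0.746, and Spearman rho = 0.01 over 15 deviations from the group means).

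**Figure D1:**
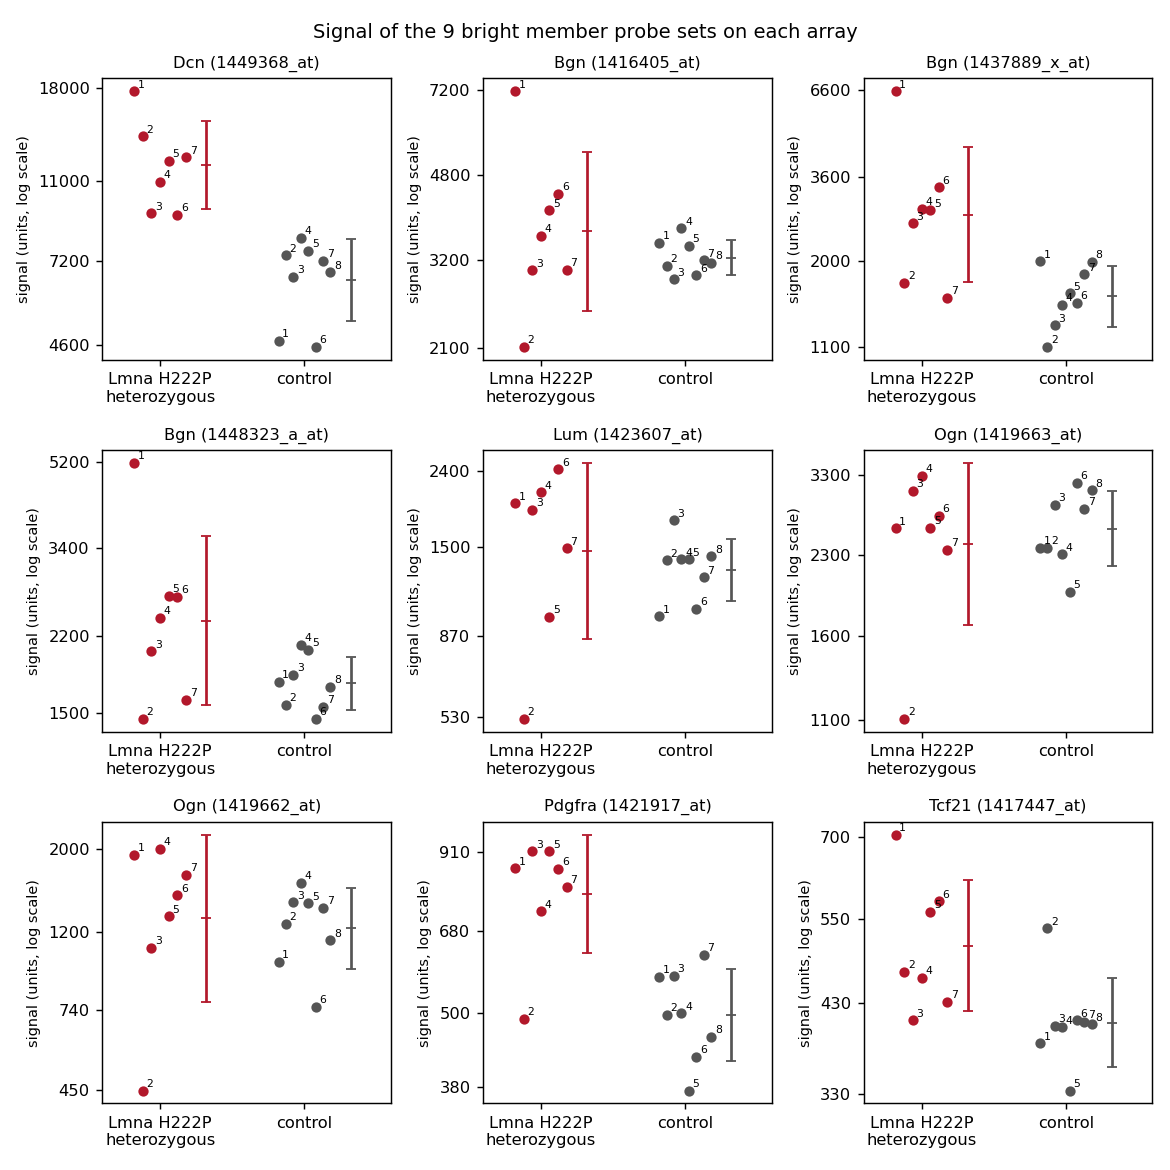
Signals of the 9 bright member probe sets on each array, on a log scale, with array numbers beside the points. Lmna H222P heterozygous hearts (red, left) and control hearts (grey, right) are shown with the mean of log2 signals and 1 SD (bars). Only for Dcn do all 7 heterozygous points lie above all 8 control points.

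Biglycan, the other class I proteoglycan, differed more among heterozygous hearts than between the genotypes in its brightest probe set. Its brightest probe set (1416405_at) had a lowest, median and highest signal of 2111.3, 3589.1 and 7152.1 units in heterozygous hearts, against 2916.1, 3174.2 and 3718.7 units in control hearts. Array 1 gave the highest and array 2 the lowest value of the heterozygous hearts. The log2 difference was 0.18 (SE 0.21), and it was 0.02 without heterozygous array 1 and 0.31 without heterozygous array 2. A further probe set of Bgn (1448323_a_at) gave 1458.7, 2401.2 and 5169.3 units in heterozygous hearts and 1460.7, 1731 and 2105.9 units in control hearts, a log2 difference of 0.45 (SE 0.23). The last one (1437889_x_at) gave 1552.5, 2850.2 and 6550.4 units in heterozygous and 1099, 1548.1 and 1997.3 units in control hearts, a log2 difference of 0.82 (SE 0.26). In the letter code of this array type, x marks a probe set with probes that can match other transcripts too. In these 2 probe sets, 4 and 5 heterozygous hearts exceeded the highest control. Without heterozygous array 1 their differences were 0.26 and 0.62, and without heterozygous array 2 they were 0.57 and 0.94.

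Lumican and fibromodulin, the class II members, gave no common picture. Lum (1423607_at) had 525.4, 1889.5 and 2419.3 units as its lowest, median and highest signal in heterozygous hearts, against 982.6, 1390.3 and 1768 units in control hearts. Heterozygous arrays 1, 3, 4 and 6 lay above the highest control, and arrays 2 and 5 lay below the lowest. The log2 difference was therefore small, 0.16 with an SE of 0.29, and it was 0.41 without heterozygous array 2 and 0.04 without heterozygous array 6. Fmod was weak in all 6 of its probe sets, with geometric means between 65.1 and 146.8 units in heterozygous and between 23.8 and 110.4 units in control hearts. The best lit one (1415939_at) had 60.3, 147.7 and 285.2 units in heterozygous and 60.4, 115.3 and 255.7 units in control hearts, with a log2 difference of 0.41 (SE 0.35). The other 5 ranged from -0.15 to 1.45, and all 6 overlapped between the groups. The value of 1.45 belonged to 1438966_x_at, which exceeded the array median on 1 of 15 arrays, and with log2 signals under 6 set to 6 it was 0.21.

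Osteoglycin, also called mimecan, had log2 differences smaller than their SEs in both of its probe sets. Its brighter probe set (1419663_at) had 1103.9, 2601.8 and 3285.6 units in heterozygous hearts and 1953.4, 2608.3 and 3191.2 units in control hearts. The log2 difference was -0.10 with an SE of 0.21. The other probe set (1419662_at) had 449.2, 1503.7 and 2008.8 units in heterozygous and 755.4, 1329.6 and 1626.8 units in control hearts, a log2 difference of 0.09 (SE 0.29). Heterozygous array 2 was the lowest of all 15 arrays in both probe sets, and without it the differences were 0.09 and 0.35.

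Pdgfra, a receptor for PDGF ligands that marks fibroblasts and their precursors, was higher in most heterozygous hearts in its bright probe set (1421917_at). Signals were 857.2, 489.6, 913.4, 731, 913.4, 855.2 and 800.6 units on heterozygous arrays 1 to 7, against 572.8, 497.4, 574.4, 500.2, 375.2, 425.6, 621.4 and 458 units on control arrays 1 to 8. All heterozygous hearts except that of array 2 lay above the highest control. Log2 signals averaged 9.61 ± 0.32 (SD, n = 7) in heterozygous and 8.96 ± 0.24 (SD, n = 8) in control hearts, a difference of 0.65 with an SE of 0.16, or 1.57-fold, and of 0.76 without heterozygous array 2. The other 2 probe sets of Pdgfra were weak, at 47.9 to 90 and 10.1 to 79.8 units in heterozygous and 32.5 to 184.7 and 31.3 to 108 units in control hearts, with log2 differences of -0.18 (SE 0.32) and -0.38 (SE 0.40).

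Tcf21, a transcription factor required for cardiac fibroblasts to form in the mouse embryo, showed a smaller difference. Its bright probe set (1417447_at) had 409.1, 471.7 and 703.6 units as its lowest, median and highest signal in heterozygous hearts, against 333, 403.2 and 535 units in control hearts. The groups overlapped, with 3 heterozygous hearts above the highest control, array 2. The log2 difference was 0.33 (SE 0.15), and it was 0.25 without heterozygous array 1. The weak probe set (1458887_at) pointed the other way, at -0.49 (SE 0.24), with 43.5 to 122 units in heterozygous and 50 to 141.5 units in control hearts.

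Over all 19 probe sets, 13 were higher and 6 lower in heterozygous hearts, with a median log2 difference of 0.18, against 39.9% higher and a median of -0.11 over all 38870 tested probe sets. Among the 9 bright ones 8 were higher, with a median of 0.33, against 51.1% higher and a median of 0.01 over the 14467 tested probe sets that exceeded the median of every array. The median of all probe sets depends on the scaling of the arrays. With array medians set equal, all tested probe sets had a median of 0.10, Dcn stood at 1.09 and Pdgfra at 0.85. In limma's moderated test with Benjamini-Hochberg adjustment over all probe sets, 0 of the 19 were called at 0.05, where 0.252% of all tested probe sets were, and 6 of the 19 and 5663 of all had an unadjusted p under 0.05. The 98 calls over the whole table were 35 higher and 63 lower, while setting array medians equal gave 51 higher and 14 lower. No overlap between the groups was seen in 1 of the 19, the bright probe set of Dcn, where this held for 0.468% of all tested probe sets. Because this contrast was used to choose the members, nothing is read from these counts.

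**Figure D2:**
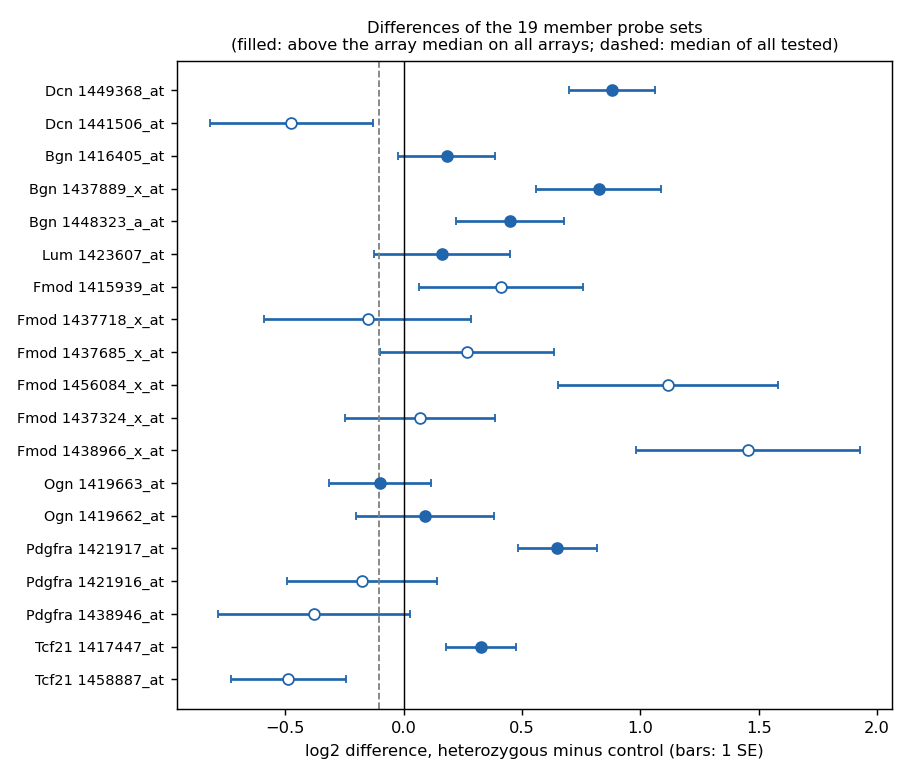
Log2 difference, Lmna H222P heterozygous minus control, of each of the 19 member probe sets, with 1 SE from limma (bars). Filled points are probe sets above the array median on all 15 arrays, and the dashed line is the median of all tested probe sets, -0.11; 8 of the 9 filled points lie right of 0.

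Bright member probe sets had higher SDs among heterozygous than among control hearts, a difference that was not tested. The SD of the log2 signal in heterozygous hearts was 0.55 against 0.12 in control hearts for the brightest probe set of Bgn, 0.78 against 0.27 for Lum and 0.52 against 0.24 for the brighter one of Ogn. For Dcn it was 0.33 in heterozygous and 0.32 in control hearts. The median ratio of these SDs, heterozygous over control, was 2.15 for the 9 bright member probe sets and 1.23 for all tested probe sets that exceeded every array median. Heterozygous arrays 1 and 2 carried much of this. Without array 2 the SD of heterozygous hearts was 0.18 for Ogn and 0.12 for Pdgfra, below the 0.24 of control hearts in both, and 0.46 for both Bgn and Lum. Without arrays 1 and 2 it was 0.24 for Bgn, and the median ratio was 1.20 for the 9 member probe sets and 1.14 for all, with 5 of the 9 above 1. These values were added after the data were seen. As a description, the scatter among heterozygous hearts came from different arrays for different genes. In the brightest probe sets, array 1 was the highest of them in Dcn, Bgn and Tcf21. Array 2 was the lowest of them in Bgn, Lum, Ogn and Pdgfra but the second highest in Dcn.

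**Figure D3:**
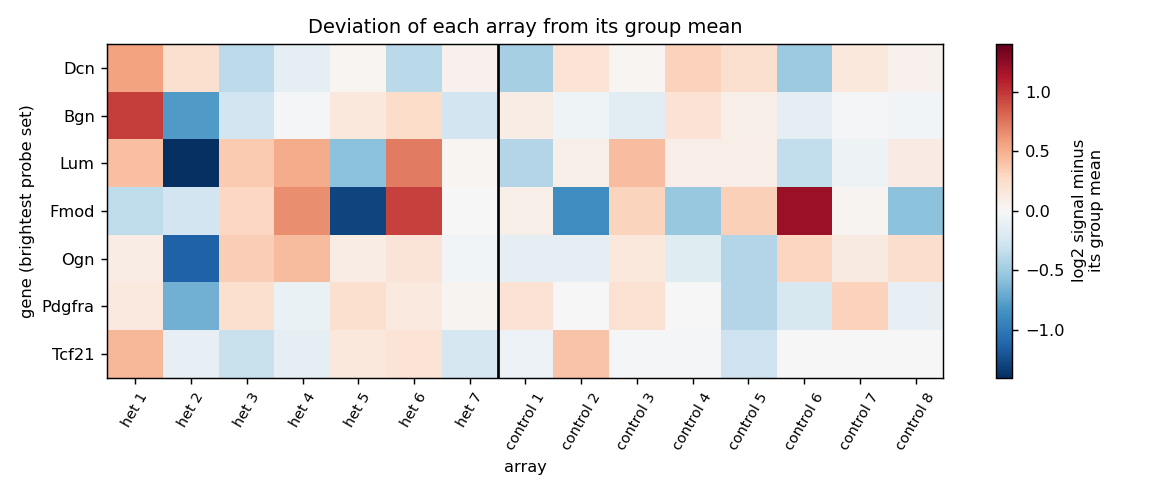
Log2 signal of the brightest probe set of each member (rows) on each array (columns), minus the mean of the array's own group, in log2 units (colour). Heterozygous arrays are left of the line and control arrays right of it. Heterozygous array 2 is blue in Bgn, Lum, Ogn and Pdgfra and red in Dcn.

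Whether members vary together from heart to heart was examined on deviations from the group means, a measure that the choice by genotype difference did not use. The brightest probe set of each gene was taken, and all 21 pairs were compared by permutation within the groups (100000 resamples, two-sided), with p-values adjusted over the 21 pairs. No pair passed, by Pearson or by Spearman correlation. The highest correlation was that of Lum with Ogn, with Pearson r = 0.72 (permutation p = 0.0384, adjusted p = 0.241) and Spearman rho = 0.51 (permutation p = 0.0664, adjusted p = 0.465). It rested on few arrays: r was 0.36 without the 2 arrays farthest from the median of Lum, 0.88 within the heterozygous and -0.06 within the control hearts. Ogn with Pdgfra gave r = 0.67 (permutation p = 0.0431, adjusted p = 0.241) and rho = 0.25 (permutation p = 0.363, adjusted p = 0.863), and r was -0.22 without the 2 farthest arrays. The adjacent genes Dcn and Lum gave r = -0.06 (permutation p = 0.852, adjusted p = 0.852) and rho = -0.05 (permutation p = 0.874, adjusted p = 0.918), with r of -0.37 within the heterozygous and 0.74 within the control hearts. The 2 arrays farthest in Dcn were control arrays 1 and 6, and without them r was -0.32. Bgn with Tcf21 gave r = 0.60 (permutation p = 0.0459, adjusted p = 0.241). The rho of this pair was 0.50 (permutation p = 0.11, adjusted p = 0.575). Its r was 0.40 without the 2 farthest arrays, 0.83 within the heterozygous and -0.37 within the control hearts. Dcn with Fmod gave the lowest Pearson value, r = -0.61 (permutation p = 0.0222, adjusted p = 0.241) and rho = -0.58 (permutation p = 0.0331, adjusted p = 0.348), where Fmod is a weak signal, and r was -0.53 without the 2 farthest arrays. The lowest Spearman value was that of Dcn with Ogn, rho = -0.62 (permutation p = 0.0184, adjusted p = 0.348), with r = -0.40 (permutation p = 0.174, adjusted p = 0.467).

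How well probe sets of the same gene follow each other was tested in the same way over 24 pairs. The 3 Bgn probe sets varied together, with Pearson r of 0.94, 0.84 and 0.84 and adjusted permutation p of 0.00096, 0.0213 and 0.0213. The Spearman rho of these pairs were 0.84, 0.74 and 0.51, with adjusted permutation p of 0.0257, 0.0692 and 0.248, and r without the 2 farthest arrays was 0.82, 0.59 and 0.56. Most of this lay in the heterozygous hearts: r was 0.97, 0.92 and 0.98 within them and 0.69, 0.34 and 0.04 within the control hearts. The spread of Bgn among the heterozygous hearts thus appeared in each of its probe sets. The pair from Ogn had r = 0.58 (permutation p = 0.126, adjusted p = 0.336) and rho = 0.05 (permutation p = 0.879, adjusted p = 0.959), and r was -0.12 without heterozygous array 2 and control array 5, the 2 farthest. For Pdgfra and Tcf21 the weak and bright probe sets had negative correlations that did not pass, with r of -0.20 and -0.27 for Pdgfra and -0.36 for Tcf21 (adjusted permutation p from 0.486 to 0.641). Their Spearman rho were -0.29, -0.43 and -0.38, and r without the 2 farthest arrays was 0.21, 0.10 and -0.24. Of the 15 Fmod pairs 1 passed by Pearson correlation, 1437685_x_at with 1456084_x_at, at r = 0.70 (adjusted permutation p = 0.0213), rho = 0.57 (adjusted permutation p = 0.178) and r = 0.58 without the 2 farthest arrays. Both carry the x of probe sets that can match other transcripts, and whether such matches add to their correlation was not tested. With the best lit Fmod probe set, 1415939_at, their r was -0.02 and 0.30.

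The genes whose deviations were most like those of Dcn were not matrix genes. Among 9023 named genes whose signal was above a log2 of 6 on all 15 arrays, the 5 with the highest Pearson r were Cfap36 (0.91), the nucleolar chaperone gene Npm1 (0.90), Rpf1, a ribosome biogenesis factor (0.89), the replication clamp gene Pcna (0.89) and Rpl4, a protein of the large ribosomal subunit (0.88). Since they were picked for this value, no p is given. Spearman rho ranged from 0.78 to 0.89, and r without control arrays 1 and 6 from 0.84 to 0.87. A second probe set of Npm1 reached 0.59. Over the 14096 probe sets compared, the median r with Dcn was near 0 and the 5th and 95th percentiles were -0.54 and 0.54. Against that distribution the brightest probe set of Tcf21 stood at percentile 83.0, Bgn at 77.5, Lum at 44.1, Pdgfra at 32.2 and Ogn at 13.3. The log2 differences of the 5 genes between heterozygous and control hearts ran from -0.05 for Rpl4 to 0.36 for Cfap36, and none was called (limma's adjusted p from 0.363 to 0.911).

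In the RefSeq gene order of GRCm38.p6, members lie in 3 uninterrupted rows of proteoglycan genes: Dcn, Lum, Kera and Epyc on chromosome 10, Optc, Prelp and Fmod on chromosome 1, and Ecm2, Aspn, Omd and Ogn on chromosome 13. Bgn lies on the X chromosome, apart from the others. Neighbours did not share a common difference. Beside Dcn at 0.88 and Lum at 0.16, Epyc (epiphycan) had a log2 difference of 0.65 (SE 0.26), at geometric means of 106.0 units in heterozygous and 67.7 units in control hearts, and Kera (keratocan) did not pass the filter on low signal. In the row of Fmod, Prelp, which encodes a proteoglycan of basement membranes and cartilage, stood at 0.58 (SE 0.19), with 1416 units in heterozygous and 946 units in control hearts, and its other probe set at 0.81, while the weak Optc was at -0.19 (SE 0.67). In the row of Ogn, Aspn (asporin) was at 0.00 (SE 0.19), Omd (osteomodulin) at 0.38 (SE 0.32) and Ecm2 at 0.34 (SE 0.25). The second probe sets of Aspn and Ecm2 stood at -0.12 and -0.68. These neighbours were named for their position after their values were seen.

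Of 13 further proteoglycans and relatives, 10 were tested, 7 of them higher and 3 lower, with a median log2 difference of 0.28, and 0 were called over all probe sets, with 4 at an unadjusted p under 0.05. The 3 with the smallest p were Chad at 1.41 (SE 0.42), Prelp, and Chadl at -0.83 (SE 0.29), with limma's adjusted p of 0.171, 0.193 and 0.225. Chad and Chadl were weak, at 51.2 and 52.5 units in heterozygous and 19.3 and 93.5 units in control hearts. The base for this list and those below is all 38870 tested probe sets, of which 5663 had limma's unadjusted p under 0.05. Of the 14467 that exceeded every array median, 1842 did.

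Enzymes that build the sulfated chains of these proteins showed no call either: of 24 tested, 14 were higher and 10 lower, with a median of 0.13, and 2 had an unadjusted p under 0.05. The smallest p-values belonged to Chsy1, a chondroitin synthase, at 0.54 (SE 0.20), Dse, the epimerase that turns chondroitin into dermatan sulfate, at 0.38 (SE 0.17), and Chst14, a dermatan sulfotransferase, at 0.67 (SE 0.33), with limma's adjusted p from 0.251 to 0.372. Of 27 ligands, receptors and proteases that bind or cut the proteoglycans, 19 were higher and 8 lower, with a median of 0.22, 0 called and 6 at an unadjusted p under 0.05. The first 3 by p were Col1a2, a chain of the collagen that decorin binds, at 0.65 (SE 0.21), the growth factor Ccn2 at 0.99 (SE 0.34) and the weak Tll1, a protease of the BMP1 family, at 1.08 (SE 0.43), with limma's adjusted p of 0.202, 0.218 and 0.271. The 3 TGF-beta genes, whose products decorin and biglycan bind, did not share a direction: Tgfb2 stood at 0.60 (SE 0.32), Tgfb3 at 0.14 (SE 0.18) and Tgfb1 at -0.42 (SE 0.26). The 4 probe sets of Tgfb2 ranged from -0.26 to 0.90.

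A list of 12 genes held PDGF ligands, Pdgfrb, partners of Tcf21, and also Plat, Wt1, Tbx18 and Scx. Of these 12, 4 were higher and 8 lower, with a median of -0.04, 0 called and 0 at an unadjusted p under 0.05. The ligand genes Pdgfa and Pdgfc stood at -0.06 (SE 0.14) and -0.12 (SE 0.25), and the other receptor, Pdgfrb, at -0.01 (SE 0.15). The second probe sets of Pdgfa and Pdgfrb stood at 0.42 and 0.15. The smallest p-values were those of Wt1 at -0.42 (SE 0.24), Pdgfd at -0.43 (SE 0.28) and Tcf12, a dimer partner of Tcf21, at 0.23 (SE 0.16), with limma's adjusted p from 0.427 to 0.517. The 3 probe sets of Pdgfd ranged from -0.50 to 0.40 and the 5 of Tcf12 from -0.70 to 1.27.

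Of 29 other fibroblast markers 22 were higher and 7 lower in heterozygous hearts, with a median log2 difference of 0.13 and 0 called. Of the 29, 7 had an unadjusted p under 0.05, as did 5663 of all 38870 tested probe sets. The first by p were Dpep1 at 0.63 (SE 0.19), Mgp, the matrix Gla protein gene, at 0.77 (SE 0.24) and Col1a2, with limma's adjusted p from 0.172 to 0.202. Other fibroblast markers stood close to 0 in their brightest probe sets, among them Thy1 at 0.01 (SE 0.21), Col3a1 at 0.08 (SE 0.25) and Ddr2 at 0.13 (SE 0.15). The second probe set of Ddr2 stood at -0.56. The summed signal of the 29 was 45982 to 72334 units in heterozygous and 35858 to 50960 units in control hearts. Bright genes weigh most in such a sum, first Gsn at geometric means of 10483 and 8122 units. In the sum, heterozygous array 1 was the highest, as it was for Dcn and Bgn.

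**Figure D4:**
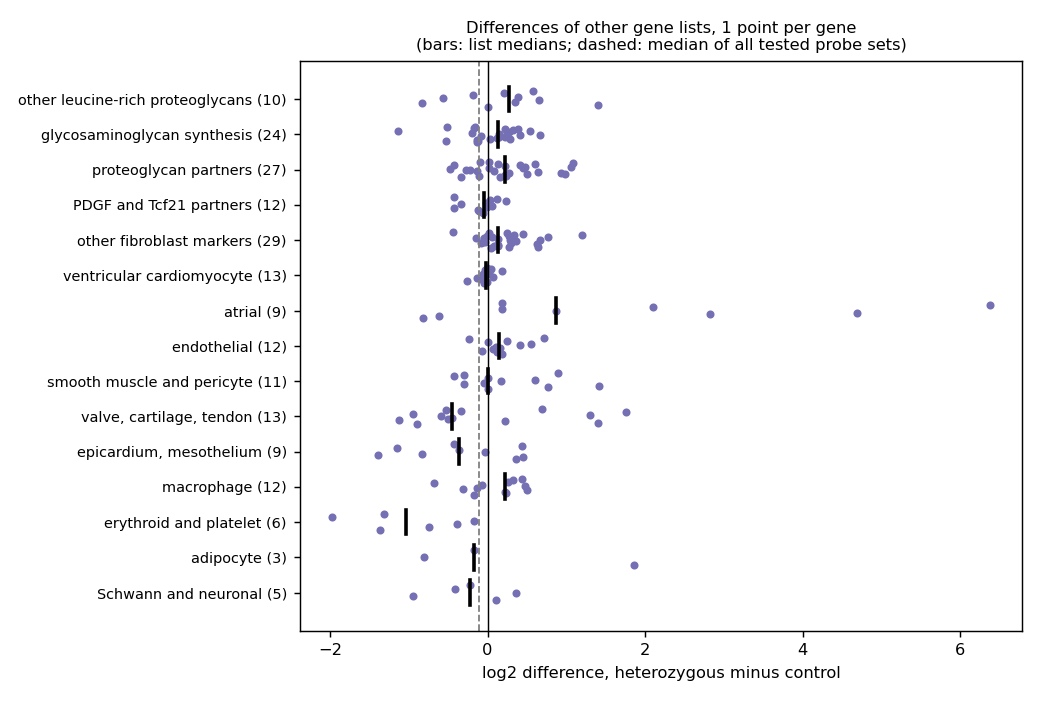
Log2 differences, Lmna H222P heterozygous minus control, of the genes of 15 other lists, 1 point per gene (its brightest tested probe set), with list medians (bars) and the number of genes tested in brackets. The dashed line is the median of all tested probe sets, -0.11. The medians of the first 3 lists are 0.28, 0.13 and 0.22.

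Markers of other cell types also differed between the groups. Of 9 atrial markers 7 were higher and 3 were called, Sln, Myl7 and Myl4 (limma's adjusted p from 0.0122 to 0.0298). The sum of all 9 was 11488 to 42420 units in heterozygous and 7260 to 11950 units in control hearts. Nppa, the brightest of them at geometric means of 12713 and 6947 units, weighs most in it and was not called (limma's adjusted p = 0.251). Sln and Myl4 each had a weaker probe set that was not called, at -0.94 and -0.07. With the mean of Sln, Myl7 and Myl4 as a covariate, the difference of Dcn was 1.49 (SE 0.32) and that of Pdgfra 0.72 (SE 0.33). All 6 erythroid and platelet markers tested were lower, with a median of -1.03, and Alas2 and Ppbp were called (limma's adjusted p of 0.0255 and 0.00117). Of the 2 probe sets of Slc4a1 the weaker one was called as well, at -1.80. The third gene by p, Bpgm, had limma's adjusted p of 0.0576. The sum of the 6 was 1748 to 3374 units in heterozygous and 3441 to 4330 units in control hearts, without overlap, and with their mean as a covariate the difference of Dcn was 1.03 (SE 0.44) and that of Pdgfra 1.03 (SE 0.38). Both covariates differ between the groups themselves, so these fits do not tell apart genotype from tissue content. Of 13 valve, cartilage and tendon markers 5 were higher and 8 lower, with a median of -0.45 and 0 called. The smallest p-values were those of Comp at 1.30 (SE 0.28), Prg4 at 1.76 (SE 0.41) and Chad, with limma's adjusted p of 0.0659, 0.0917 and 0.171, while the cartilage-defining Col2a1 and Acan were weak, at 30.6 and 32.9 units in heterozygous and 41.8 and 61.2 units in control hearts. The sum of the 13 was 1237 to 3023 units in heterozygous and 1060 to 1568 units in control hearts, and its part in the differences of the members was not tested.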

How the data were processed

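RNA came from whole hearts, purified with RNeasy columns and labelled with biotin for Affymetrix arrays, per the labels' protocols. The authors deposited 1 intensity for each probe set on each array. GCRMA is the tool listed in the submitters' processing notes, with no version. The values are linear and share a mean of 250 units on every array once 2% is trimmed at each end, unlike the usual log-scale output of GCRMA, so how probes were summarised is not known.

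Signals were taken to log2 without a pseudocount. Affymetrix controls (64 probe sets) were removed, and testing required a log2 signal above 4 on 7 or more of the 15 arrays. The test was limma 3.58.1 under R 4.3.3, with lmFit and eBayes, genotype as the only term, two-sided, and Benjamini-Hochberg adjustment over 38870 probe sets at 0.05. The platform annotation named a gene where it gives 1 symbol (34958 probe sets, with 932 of several and 9211 of none), and the RefSeq table of GRCm38.p6 changed 0 symbols. For genes of the other lists, the brightest tested probe set on average stood for the gene. Correlations were tested by permutation within groups (100000 resamples, Python 3.11.15). The fit was tested on simulated data. The members, the 15 other lists and the alternatives were chosen with earlier results of these data known. Named are all members, the genes called or with the 3 smallest p of each list and the 5 genes most like Dcn, besides genes named for role or position after their values were seen. Same-numbered samples of the groups did not deviate together (correlations from -0.06 to 0.06 over 7 pairs). This gave no sign of pairing, but a correlation over all tested probe sets could miss a link that touches few genes. The labels do not tie the samples to litters, so a p-value reflects only how these hearts scatter. Alternatives varied the filter, scaling, floor, weights, prior, block, covariates and arrays left out.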

Additional observations from a re-analysis of the deposited data

Results flagged for a closer look

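In 38 groups of arrays (19 member probe sets in 2 genotypes), 6 held an array whose gap to its nearest neighbour, as a share of the range of log2 signals in its group, exceeded Dixon's critical value at the 95% level for a group of that size. By its level the rule picks about 1 in 20 independent groups by chance. Probe sets on the same arrays are not independent groups. The share that the rule would pick over all tested probe sets was not computed, so nothing is read from the count of 6.

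Of these 6, 3 were on heterozygous array 2, the lowest of the heterozygous hearts in both probe sets of Ogn, at 1103.9 and 449.2 units, and in the bright probe set of Pdgfra, at 489.6 units. In Ogn and Pdgfra the other heterozygous hearts began at 2361.1, 1089.5 and 731 units in these probe sets. The same array had the second-highest Dcn signal, 13915.8 units.

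Weak probe sets of Pdgfra gave 2 more, on heterozygous array 3 (47.9 units in 1421916_at) and heterozygous array 7 (10.1 units in 1438946_at). Among controls, array 2 was the highest in the bright probe set of Tcf21, at 535 units, where the other controls reached 409 units at most.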

How the results depend on the processing

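The number of probe sets called over the whole table, 98, became 192 with the log2 filter at 6, 65 after median centring, 65 after quantile normalization, 287 with the floor at a log2 of 6 and 312 with a trended and robust prior; no filter and array weights left it within 1.5 times. With the replicate block it was 1. The labels do not say whether the numbers pair the samples, and 1 of 7 heterozygous arrays correlated best with the control of its own number. Leaving out 1 array at a time gave 17 to 150 calls: 40, 20, 54 and 150 without heterozygous arrays 1, 4, 6 and 7, and 27, 32, 27, 24, 52, 55 and 17 without control arrays 1 to 7. Between 11 and 16 member probe sets were higher in heterozygous hearts under the alternatives, against 13 of 19. With the log2 filter at 6, 12 of the 17 tested were higher. The 2 covariate fits and the difference of medians are left out of this range. Fewer were higher with the atrial covariate, where the best lit Fmod probe set (1415939_at) went from 0.41 to -0.22.

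The difference of Dcn in its bright probe set stayed between 0.79 and 0.94 when 1 array was left out, was 0.89 with the replicate block and 1.49 with the atrial covariate. The count of member probe sets called, 0 of 19, was 1 with the filter at 6 (Dcn), 2 with the floor and 2 with the trended and robust prior (Dcn and Pdgfra, bright probe sets), 1 without heterozygous array 2 (Pdgfra) and 0 under the other alternatives that give a test. Calls over the whole table rose as well, to 192 of 24976 probe sets with the filter at 6 and 287 of 36091 with the floor. With the trended and robust prior they were 312 of 38870, against 98 of 38870 in the main fit. Without heterozygous array 2 they stayed at 98 of 38870. Because the members were chosen on this contrast, the counts of member calls support nothing about the members. Of 492 member values under alternatives 468 kept their sign. For the bright probe sets other than those of Ogn, all 182 did. Signals near the array median limit what can be said of Fmod and of the weak probe sets of Dcn, Pdgfra and Tcf21.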

Other observations

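Endothelial, smooth muscle, epicardial, macrophage, adipocyte and Schwann cell markers were examined as the other cells a whole heart holds. Of 12 endothelial markers 10 were higher and 2 lower in heterozygous hearts, with a median log2 difference of 0.14 and 0 called. The receptor genes Kdr and Flt1 stood at 0.55 (SE 0.17) and 0.42 (SE 0.14) and Vwf at 0.71 (SE 0.28), with limma's adjusted p from 0.179 to 0.275. The 4 probe sets of Flt1 ranged from -0.15 to 0.57. Of 11 smooth muscle and pericyte markers 7 were higher and 4 lower, with a median of 0.01 and 0 called. The contractile genes Acta2 and Tagln stood at 0.77 (SE 0.17) and 0.89 (SE 0.24), and the pericyte gene Rgs5 at -0.43 (SE 0.13), with limma's adjusted p of 0.0755, 0.129 and 0.169. The 3 probe sets of Acta2 ranged from -1.55 to 0.95 and the 4 of Rgs5 from -1.16 to 0.17.

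Of 9 epicardial and mesothelial markers 3 were higher and 6 lower, with a median of -0.36 and 0 called. Krt8, Krt19 and Upk1b had the smallest p, at -0.83 (SE 0.34), -1.39 (SE 0.63) and -1.15 (SE 0.55), all of them weak signals. The 3 probe sets of Upk1b ranged from -1.15 to 0.28. Of 12 macrophage markers 7 were higher and 5 lower, with a median of 0.22 and 0 called, and Cd68, C1qc and Mrc1 stood at 0.48 (SE 0.22), 0.50 (SE 0.23) and 0.32 (SE 0.17). The sum of the 12 was 6937 to 17525 units in heterozygous hearts, against 8099 to 10713 units in control hearts. Heterozygous array 1 had the highest sum of all arrays and was also the highest in Dcn and Bgn. Ventricular cardiomyocyte markers lay close to 0 in their brightest probe sets, with 4 of 13 higher, a median of -0.02 and 0 called. Ryr2 stood at 0.18 (SE 0.13), Ckm at -0.26 (SE 0.23) and Mybpc3 at -0.13 (SE 0.17). The 6 probe sets of Atp2a2 ranged from -0.04 to 0.94 and the 6 of Ttn from -0.84 to 0.31. Of 3 adipocyte markers Adipoq stood at 1.86 (SE 0.67), at 85.5 units in heterozygous and 23.6 units in control hearts, Retn at -0.17 and Cidec at -0.81, with 0 called and a median of -0.17. Of 5 Schwann and neuronal markers 2 were higher and 3 lower, with a median of -0.23 and 0 called, and Mbp, Sox10 and S100b stood at -0.95, -0.41 and 0.36. The 7 probe sets of Mbp ranged from -0.95 to 1.43, the 3 of Sox10 from -0.48 to 0.32 and the 2 of S100b from -0.40 to 0.36.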
